A study of Rattus norvegicus with 6 samples.

Results

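Cell junction genes of the rat kidney inner medulla tip were examined in control and diabetic animals. They were chosen by name, as every row of the deposited table whose gene symbol belongs to the claudins, the MARVEL domain family, the Tjp and Jam families, the connexins, the desmosomal cadherins or the plakophilins, together with Ocln, F11r, Cgn, Jup, Cdh1 and Cdh16. This gave 60 of the 27321 rows. By class, 32 were tight junction rows, 17 gap junction rows, 9 desmosome rows and 2 epithelial cadherins. A single gene was named in 52 of them. A pair of neighbouring genes was named in 7, and 1 merges Tjp3 with the overlapping Apba3, so its reads cannot be assigned to either. Desmoplakin (Dsp) has no row of its own and is counted only together with an unnamed overlapping gene.

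Both groups were 3-month-old male Sprague-Dawley rats, 3 in each. The diabetic rats received streptozotocin (STZ), a toxin of the insulin-producing beta cells, in the tail vein at 62.5 mg/kg, and the control rats received vehicle. RNA of the IM tip, the terminal portion of the inner medulla, was sequenced 15 days later, as 1 library per sample. The tissue was dissected whole, so each value is an average over every cell type in it, and fewer cells of a type and less RNA per cell cannot be told apart.

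Tight junctions seal the space between neighbouring epithelial cells, and their claudins decide which ions cross it, some as barriers and others as pores. Gap junctions join the cytoplasm of neighbouring cells through channels built of connexins. Desmosomes and the cadherins of adherens junctions hold the cells together and anchor their cytoskeletons. In the collecting duct, the segment that runs through the inner medulla, Cldn4 and Cldn8 are known as partners in a chloride-selective paracellular path.

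The libraries held between 3412311 and 5575171 reads on annotated rows, and 1 read was worth between 0.763 and 1.11 normalized counts, the deposited read counts divided by a size factor per library. A normalized count is not corrected for gene length, so levels are compared between animals and not between genes. The junction rows took 0.657%, 0.647% and 0.658% of all normalized counts in the control libraries and 0.544%, 0.596% and 0.582% in the STZ libraries. Cdh16 weighs most on these shares, with means of 14024 in the controls and 11806 in the STZ libraries. Its groups overlapped, so the shares do not describe the class as a whole. By the column names, sequencing lane 3 carried every control library and no STZ library, which ran on lanes 7, 6 and 8. Lane cannot be told apart from group.

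Among the junction genes, 2 passed the test. The claudin Cldn8 fell to 0.402 times its control mean, and the connexin Gjb5 rose to 1.84 times its control mean. The test was limma on log2(normalized count + 1) with adjustment over all 13486 features whose mean reached 5 normalized counts, and a feature passed with an adjusted p under 0.05. It covered 34 of the 60 rows, of which 5.88% passed, against 2.1% of all features tested. By direction the background was 1.17% higher and 0.927% lower. The median log2 fold change of the 34 was 0.02, and that of all features was 0.01. Of the 26 rows not tested, 17 were at or under a floor of 3 reads in all 6 libraries, and the highest mean of the rest was 4.99. Gja5 and Gjb2 reached the minimum only through the control group.

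The control and STZ libraries did not overlap in 12 of the 34 tested rows, or 35.3%, against 20.3% of all features tested. Cldn8, Cldn15, Cldn12, Marveld2, Cldn2 and Cldn17 were lower in all STZ libraries than in any control library, and those that were higher included Cdh1, Gjb5, Cldn19, Marveld1 and Cgn. All but Cldn8 and Gjb5 of these missed the threshold.

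**Figure D1:**
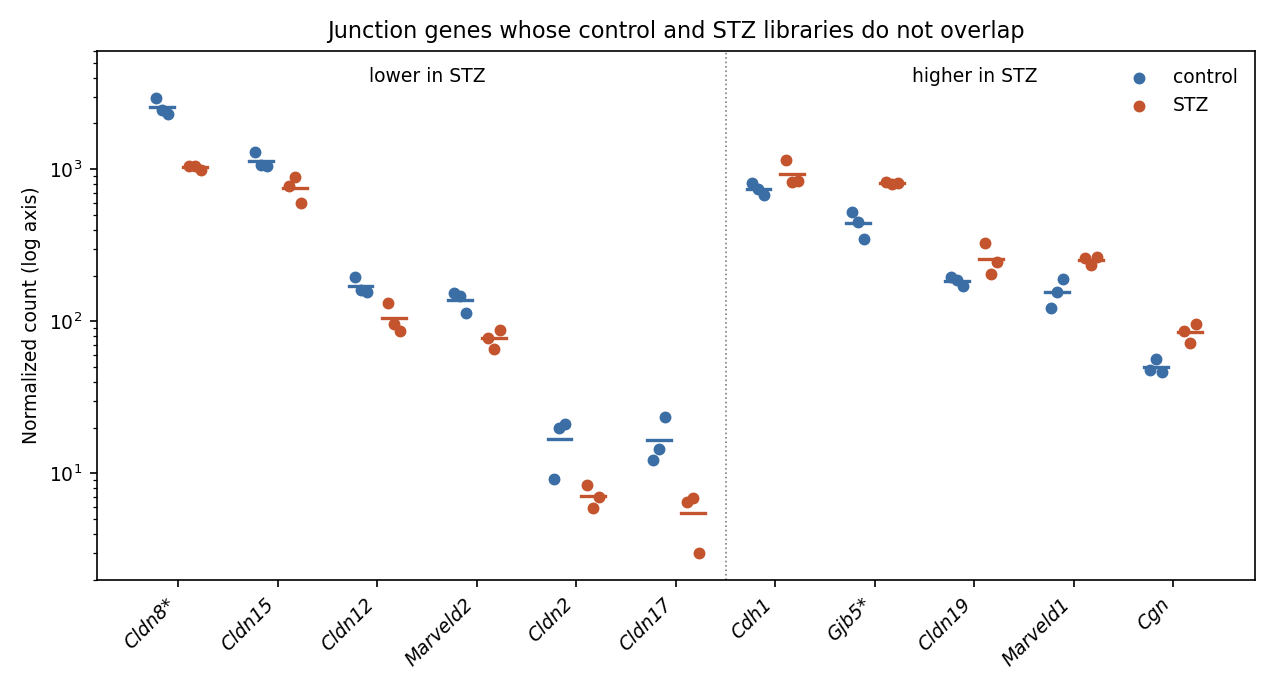
Normalized count (log axis) of 11 junction genes whose groups do not overlap, with 1 point per library, short lines at the group means and an asterisk at the genes that passed the limma test. The Cldn8 points of the STZ group lie between 993 and 1056, below the lowest control point at 2313, and the Gjb5 points of the STZ group lie between 796 and 827, above the highest control point at 526.

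Cldn8, the barrier claudin of the distal nephron and collecting duct, is a 678-base locus on chromosome 11 (rn4 chr11:28421182-28421859). Its normalized counts were 2942, 2442 and 2313 in the control libraries and 1046, 1056 and 993 in the STZ libraries, in order of replicate number here and in what follows. All STZ libraries lay far below the lowest control library, and they were closer to each other than the controls were. The control mean was 2566 ± 332 (SD, n = 3) and the STZ mean 1032 ± 34.2 (SD, n = 3). The log2 fold change was -1.31 with a standard error of 0.18 and a limma adjusted p of 0.00548. The call held in 17 of the 18 alternative analyses and was lost in limma without the intensity trend, at an adjusted p of 0.0789.

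The neighbouring claudin on the same chromosome is Cldn17, known as an anion pore, which lies 50.1 kb away at chr11:28370367-28371041. Its normalized counts were 12.3, 14.5 and 23.4 in the controls and 6.50, 6.92 and 3.01 in the STZ libraries. Every STZ library was below every control library, with no more than 7 reads in any STZ library. On the log2 scale the fold change was -1.47 with a standard error of 0.50 and a limma adjusted p of 0.179. The separate row named by the Cldn8 and Cldn17 pair, whose coordinates run from the start of Cldn17 to the end of Cldn8, held 6.15, 6.10 and 7.79 normalized counts in the controls and 2.79, 2.97 and 3.01 in the STZ libraries, and its mean was too low for it to be tested.

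The promoters of these neighbouring claudins are shown because they were the lowest by log2 fold change of the tested claudins and lie on the same strand of the same chromosome. Each window runs from 250 bases before to 50 bases after the annotated start in RefSeq on the build GRCr8, which is later than the build of the deposited table. The Cldn8 window is chr11:41364281-41364580 and the Cldn17 window chr11:41314802-41315101, both on the minus strand and written 5′ to 3′. Capitals mark the longest run that both windows share.
Cldn8: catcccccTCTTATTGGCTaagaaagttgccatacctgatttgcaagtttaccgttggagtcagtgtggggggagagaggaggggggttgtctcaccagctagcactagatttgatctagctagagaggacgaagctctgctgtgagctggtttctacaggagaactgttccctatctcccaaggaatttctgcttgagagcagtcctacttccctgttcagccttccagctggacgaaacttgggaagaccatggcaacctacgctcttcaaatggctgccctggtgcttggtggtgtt
Cldn17: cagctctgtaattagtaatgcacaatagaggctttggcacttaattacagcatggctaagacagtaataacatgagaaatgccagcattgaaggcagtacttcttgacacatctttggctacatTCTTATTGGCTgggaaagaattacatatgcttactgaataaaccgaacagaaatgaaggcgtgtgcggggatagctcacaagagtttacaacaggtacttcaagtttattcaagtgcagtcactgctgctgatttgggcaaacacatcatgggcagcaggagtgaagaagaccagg

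The shared run of 11 bases, TCTTATTGGCT, began 242 bases before the start of Cldn8 and 126 bases before the start of Cldn17. On either strand it was in 15 of all 33469 promoter windows, the Cldn8 and Cldn17 windows included, and in no window of another junction gene. The run was taken from the Cldn8 and Cldn17 windows, so its presence in both was fixed. The run's length was not compared with that shared by other windows. It contains ATTGG, the reverse complement of the CCAAT box, which was in 37.5% of all windows on either strand, so the short motif alone is common. None of 6 other motifs searched on both strands was in either window. These were the TATA box TATAAA, the GC box GGGCGG, the E-box CAGGTG bound by Snail factors, the cAMP response element TGACGTCA, the grainyhead site AACCGGTT and the steroid receptor half-site AGAACA. Windows were found for 36 of the 52 single-gene members, and over their 37 entries the GC box was in 20, against 33.1% of all windows. These matches describe the letters alone.

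The partner of Cldn8, Cldn4, did not pass. Its group means were 764 ± 140 (SD, n = 3) in the controls and 827 ± 90.7 (SD, n = 3) in the STZ libraries, with a 95% confidence interval of the log2 fold change from -0.30 to 0.56. The ratio of Cldn8 to Cldn4 within a library, which needs no size factor, was 3.88, 2.70 and 3.69 in the controls and 1.13, 1.41 and 1.23 in the STZ libraries. This ratio was lower in every STZ library, and the exact two-sided permutation test of 3 against 3 gave p = 0.1, the smallest it allows. The ratio holds the same Cldn8 values, which were already separated, so it is no independent test.

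Over the 18 single-gene claudin rows, Cldn8 supplied 39.3%, 38.8% and 38.1% of the reads in the control libraries and from 18.5% to 22.5% in the STZ libraries. Cldn10, a claudin that forms ion-selective pores in 2 splice forms, supplied 24.2%, 20.8% and 25.7% in the controls and 38.9%, 38.4% and 31.5% in the STZ libraries. Both shares were fully separated between the groups, and shares within a library move against each other by construction. The normalized count of Cldn10 itself overlapped between the groups, with 1813, 1309 and 1559 in the controls and 2200, 2030 and 1388 in the STZ libraries. Its log2 fold change was 0.25 with a standard error of 0.22 and a limma adjusted p of 0.712.

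**Figure D2:**
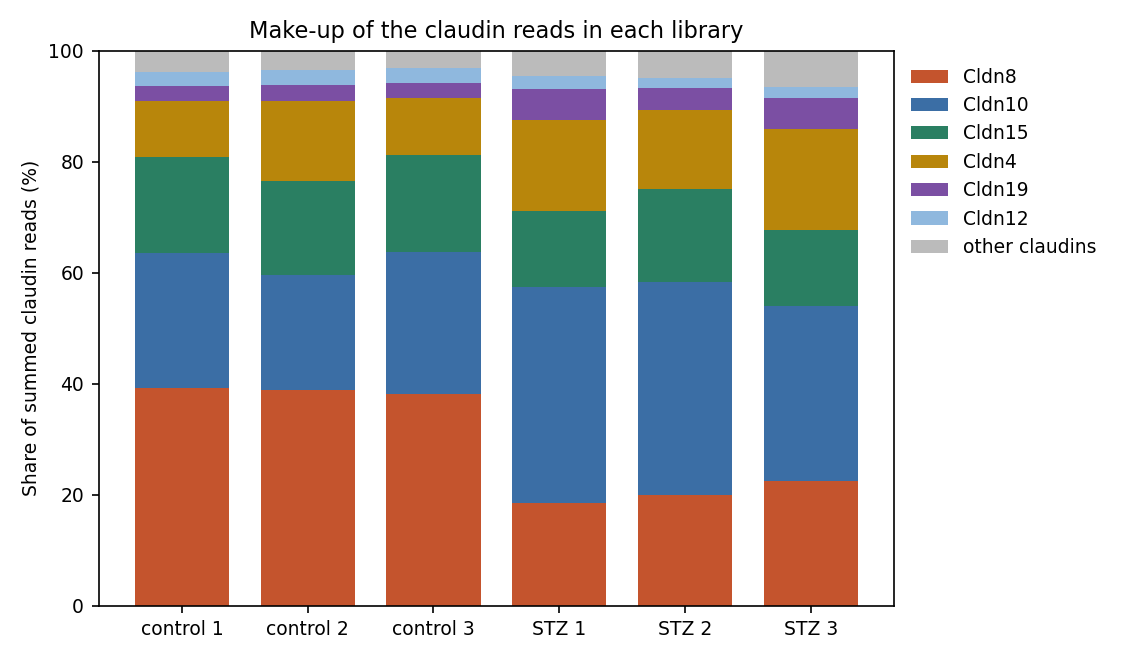
Share of the summed claudin reads in each library (percent, stacked to 100), with the 6 claudins of highest count and the remaining 12 grouped together. The Cldn8 band, at the bottom, covers 38.1% to 39.3% of the control bars and 18.5% to 22.5% of the STZ bars.

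Of 11 tested claudins, 1 passed, against 2.1% of all features. The groups did not overlap in 6, of which 5 were lower and 1 was higher in the STZ libraries, against 10.3% of all features that were lower and 10.1% that were higher without overlap. Cldn15, a cation pore, had 1303, 1060 and 1055 normalized counts in the controls and 771, 884 and 602 in the STZ libraries. Cldn12 had 196, 161 and 156 in the controls and 132, 95.9 and 86.3 in the STZ libraries. Cldn2, the cation pore of the proximal tubule and thin descending limb, had 9.23, 19.8 and 21.1 in the controls and 8.36, 5.93 and 7.03 in the STZ libraries. All STZ values of these claudins were below the controls, by a narrow margin in Cldn2, whose first control library stood close to the STZ range. For Cldn2 the first control and the first STZ library held the same number of reads. That margin therefore came from the size factors alone. The log2 fold changes were -0.61 for Cldn15, -0.72 for Cldn12 and -1.06 for Cldn2, with standard errors of 0.20, 0.22 and 0.46 and limma adjusted p of 0.164, 0.136 and 0.314. Cldn15 passed after quantile normalization, at an adjusted p of 0.0331.

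Cldn19, which supports cation selectivity in the thick ascending limb, stood higher in the STZ libraries, with 195, 187 and 170 normalized counts in the controls and 325, 204 and 244 in the STZ libraries. The groups were separated by less than 10 normalized counts. Its log2 fold change of 0.46 had a standard error of 0.21 and a limma adjusted p of 0.343. Cldn1, Cldn6 and Cldn11 overlapped between the groups, with log2 fold changes from 0.28 to 0.43. Cldn7, Cldn9, Cldn14, Cldn20, Cldn22, Cldn23 and Cldn24 were too low to be tested, with no library above 8 reads in any of them.

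**Figure D3:**
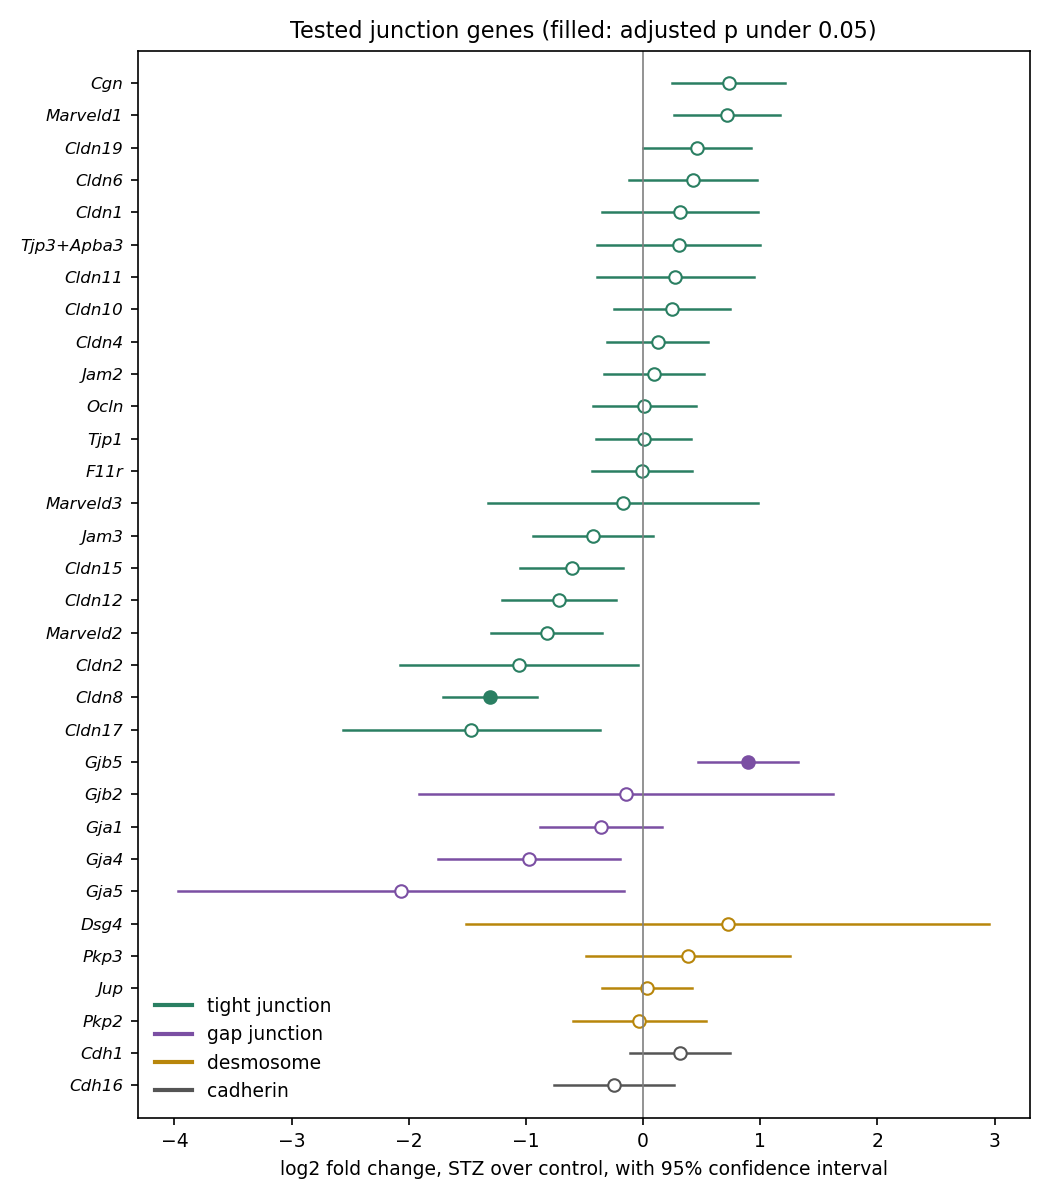
The log2 fold change of STZ over control for 32 of the tested junction rows, grouped by class, with 95% confidence intervals as bars and filled points for the genes that passed. Cldn8 at -1.31 and Gjb5 at 0.90 are the filled points, and the widest intervals belong to low genes such as Gja5 and Dsg4.

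Ocln, Marveld2 and Marveld3 encode the tight junction proteins of the MARVEL type. These genes and Marveld1 all missed the threshold in the limma test. Marveld2, or tricellulin, which seals the corners where 3 cells meet, had 154, 147 and 114 normalized counts in the controls and 78.0, 66.3 and 88.3 in the STZ libraries. Every STZ library was below every control library. Its log2 fold change was -0.82 with a standard error of 0.22 and a limma adjusted p of 0.0839, and it passed with DESeq2, at 0.0413, and after quantile normalization, at 0.0468. Ocln, or occludin, of the same family, overlapped between the groups, with means of 382 ± 76.3 (SD, n = 3) and 380 ± 29.3 (SD, n = 3) and a 95% confidence interval of the log2 fold change from -0.43 to 0.45. These genes lie 35.8 kb apart on chromosome 2 of rn4. The ratio of Marveld2 to Ocln was 0.346, 0.364 and 0.382 in the controls and 0.196, 0.168 and 0.255 in the STZ libraries, lower in all of the latter with an exact permutation p of 0.1.

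Marveld1, a further MARVEL domain protein, was placed in the tight junction class by its name alone. It had 123, 155 and 190 normalized counts in the controls and 260, 234 and 265 in the STZ libraries. Cgn, or cingulin, which ties tight junctions to the cytoskeleton, had 48.2, 56.4 and 46.7 in the controls and 86.4, 72.2 and 95.4 in the STZ libraries. Both were higher in every STZ library. Their log2 fold changes were 0.71 and 0.73, with standard errors of 0.21 and 0.22 and limma adjusted p of 0.116 and 0.13.

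The scaffold Tjp1, or ZO-1, had means of 264 ± 37.8 (SD, n = 3) and 263 ± 8.07 (SD, n = 3), and the 95% confidence interval of its log2 fold change ran from -0.40 to 0.41. F11r, the junctional adhesion molecule JAM-A, had 3382, 3378 and 2632 normalized counts in the controls and 3194, 3097 and 2971 in the STZ libraries. The STZ values of F11r lay inside the control range, with a log2 fold change of -0.01, a standard error of 0.19 and a 95% confidence interval from -0.44 to 0.42. Jam2, Jam3 and Marveld3 also overlapped between the groups, at log2 fold changes of 0.09, -0.43 and -0.17. The merged row of Tjp3 and Apba3 was at 0.30.

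Among the connexins, 7 of 17 rows were tested and 1 passed as higher, against 1.17% of all features tested. The median log2 fold change of the 7 was -0.15, and that of all features was 0.01. Gjb5, the connexin Cx31.1 known from stratified epithelia, had 526, 446 and 350 normalized counts in the controls and 827, 796 and 806 in the STZ libraries. All STZ libraries were above the highest control, and the spread lay almost wholly in the controls. The control mean was 441 ± 88.3 (SD, n = 3) and the STZ mean 810 ± 15.9 (SD, n = 3). The log2 fold change was 0.90 with a standard error of 0.19 and a limma adjusted p of 0.0408. The call held in 12 of 18 alternatives. It was lost without the intensity trend, at an adjusted p of 0.183, and when control replicate 2 or 3 or STZ replicate 1, 2 or 3 was left out, at 0.155, 0.0682, 0.115, 0.149 and 0.107, with log2 fold changes between 0.74 and 0.92.

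Gja4, or Cx37, a connexin of vascular endothelium, had 164, 127 and 55.7 normalized counts in the controls and 64.1, 48.5 and 48.2 in the STZ libraries. Its values are given because a single library decided its call. Control replicate 3 stood near the STZ range, so the groups overlapped, and the limma adjusted p was 0.21 at a log2 fold change of -0.97. Without that library Gja4 passed, at an adjusted p of 0.0156. Gja5, or Cx40, a connexin of the same cells, had means of 12.8 and 3.59, and its adjusted p was 0.288.

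Gja1, or Cx43, the most widely expressed connexin of the body, had 669, 591 and 433 normalized counts in the controls and 581, 380 and 367 in the STZ libraries. Its groups overlapped. The log2 fold change of -0.36 had a standard error of 0.24 and a limma adjusted p of 0.554. The ratio of Gjb5 to Gja1 within a library was 0.786, 0.755 and 0.807 in the controls and 1.42, 2.10 and 2.19 in the STZ libraries. The ratio was higher in every STZ library, with an exact permutation p of 0.1. The 10 connexin rows not tested included 9 at or under the floor in all 6 libraries.

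Of the desmosome genes, 4 of 9 rows were tested. None passed, against 2.1% of all features tested, and none was separated between the groups, against 20.3%. The median log2 fold change of the 4 was 0.21, and that of all features was 0.01. At an unadjusted p under 0.05 there were 12 of the 34 tested junction genes, none of them desmosomal, against 14.7% of all features tested (7.75% with a higher value in the STZ libraries), and none of the desmosome genes passed with edgeR or DESeq2. Jup, or plakoglobin, which links desmosomal cadherins to desmoplakin, had 218, 221 and 250 normalized counts in the controls and 220, 242 and 244 in the STZ libraries. The plakophilin Pkp2 had 47.2, 37.4 and 43.4 in the controls and 39.9, 33.6 and 53.2 in the STZ libraries. The plakophilin Pkp3 had 13.3, 22.1 and 8.90 in the controls and 18.6, 15.8 and 21.1 in the STZ libraries. All of them overlapped between the groups, with log2 fold changes of 0.03, -0.03 and 0.38, and the 95% confidence interval of Jup, from -0.35 to 0.42, was the narrowest of the class. The desmosomal cadherins were low, with Dsc3 and Dsg2 at no more than 5 reads. Dsg3 had no more than 7 reads and Dsg1b no more than 13. Dsg4 was tested at means of 7.21 and 7.25. Its control replicate 1 was at 0, and its log2 fold change was 0.72. The row that merges Dsp with its overlapping gene held 250, 236 and 249 normalized counts in the controls and 245, 292 and 250 in the STZ libraries.

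Of the epithelial cadherins, Cdh1, or E-cadherin, the adhesion molecule of epithelial adherens junctions, had 814, 738 and 678 normalized counts in the controls and 1147, 823 and 832 in the STZ libraries. The STZ libraries were all higher, the lowest of them by less than 10 normalized counts. Cdh1 had a log2 fold change of 0.32 with a standard error of 0.19 and a limma adjusted p of 0.518. Cdh16, the kidney-specific Ksp-cadherin of tubule cells, had 15886, 13660 and 12527 in the controls and 11321, 13291 and 10806 in the STZ libraries. The groups overlapped, with a log2 fold change of -0.25, a standard error of 0.23 and a limma adjusted p of 0.728. The ratio of Cldn8 to Cdh16 was 0.185, 0.179 and 0.185 in the controls and 0.0924, 0.0795 and 0.0919 in the STZ libraries, lower in all of the latter with an exact permutation p of 0.1.

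Markers of other cell types moved with the groups beside Cldn8 and Gjb5. The defining genes of the collecting duct were present, since 5 of 6 principal cell markers were found and summed to between 32643 and 54492 normalized counts in the controls and between 42452 and 81469 in the STZ libraries. All 5 missed the threshold, with a lowest limma adjusted p of 0.18, and Fxyd4 made up most of the sum. The water channel Aqp2 was higher in every STZ library, at a log2 fold change of 0.84, and the steroid enzyme Hsd11b2 was lower in every STZ library, at -0.83 and an adjusted p of 0.228. The ratio of Cldn8 to Aqp2 was 1.03, 0.671 and 1.08 in the controls and 0.141, 0.276 and 0.221 in the STZ libraries. Intercalated cells are the cells of the collecting duct that handle acid and base. Their summed markers ranged from 976 to 2339 in the controls and from 396 to 482 in the STZ libraries. All 4 tested were lower in every STZ library, against 10.3% of all features tested. Of them 3 passed, against 0.927% of all features that passed as lower. The summed markers of the thick ascending limb, from which Cldn10 and Cldn19 are known, ranged from 1106 to 1889 and from 214 to 602. All 3 tested were lower in every STZ library and 2 of them passed, against 10.3% and 0.927% of all features tested.

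The summed endothelial markers ranged from 7044 to 9167 in the controls and from 3704 to 4110 in the STZ libraries, where Emcn and Plvap fell. Of the 6 tested, 2 passed as lower, against 0.927% of all features tested. The other 4, the pan-endothelial Pecam1 among them, did not pass. Tie1 of the same list was higher in every STZ library, at a log2 fold change of 0.55 and a limma adjusted p of 0.286. Emcn made up most of the sum, and without it the sums overlapped, from 1860 to 2684 in the controls and from 1667 to 2107 in the STZ libraries. These stand beside the values of Gja4 and Gja5. The urothelial markers, of a stratified epithelium, ranged from 90.8 to 142 in the controls and from 441 to 529 in the STZ libraries. Of the 6 tested, Upk3a and Upk1b passed as higher, against 1.17% of all features tested. Most of the difference lay in Upk3a, and without it the sums ranged from 62.5 to 92.4 and from 109 to 162. The groups did not overlap in 3 of the 6, all higher, against 10.1% of all features tested. Upk1a and Tp63 were among those that overlapped. The urothelial markers stand beside Gjb5. Markers of pericytes and smooth muscle were higher through Tagln, and its removal left the sums overlapping. Tagln alone of 3 tested passed, against 1.17% of all features that passed as higher. Markers of the thin limbs, the proximal tubule and leukocytes overlapped in their sums, although Pla2g7 of the thin limb list passed as lower. No marker found was at 0 in all 6 libraries. The part of these cell types in the junction gene results was not tested.

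**Figure D4:**
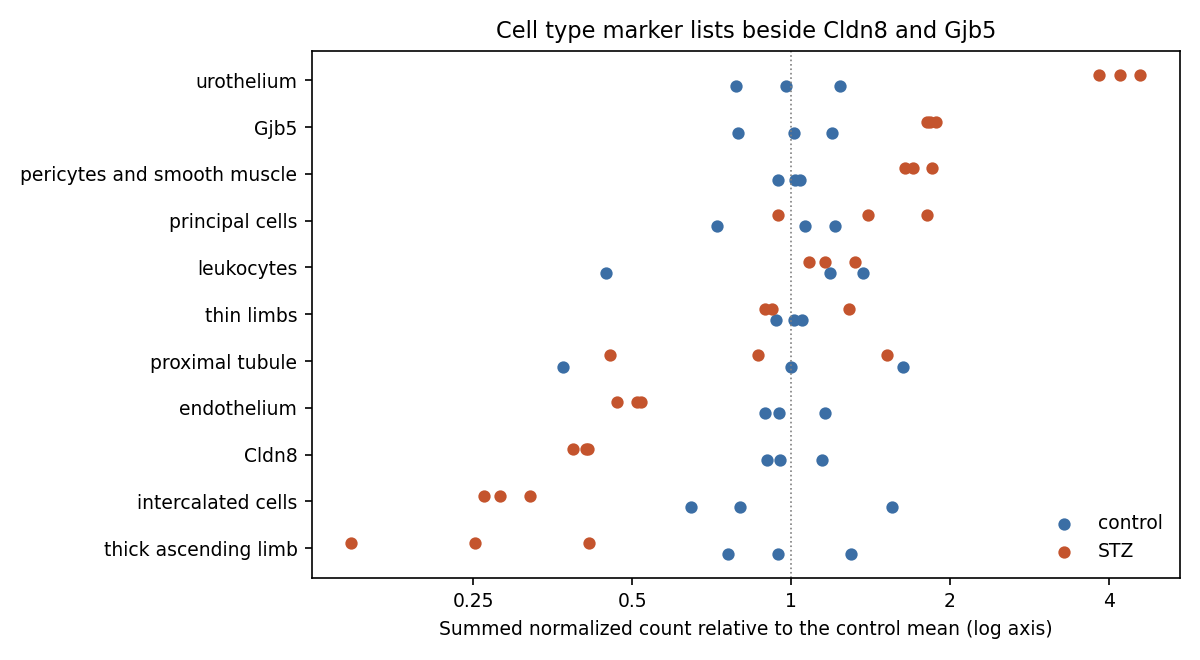
Summed normalized count of each marker list, and the normalized counts of Cldn8 and Gjb5, in each library relative to the control mean of that row (log axis). The STZ points of the intercalated cell, thick ascending limb and endothelial lists lie left of all their control points, as do those of Cldn8, and those of the urothelial and the pericyte and smooth muscle lists lie right of them, as do those of Gjb5.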

How the data were processed

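RNA-seq was made from the IM tip of 3 control and 3 STZ rats. Alignment by the authors used STAR 2.3.1t and the genome rn4, and their counts of uniquely mapped reads were normalized with DESeq (version 1.16.0 per the submitters' processing notes). The deposited signal is thus a read count divided by a size factor per library. Which program counted the reads, and whether it used strand, is not given in the sources used here, so overlapping or antisense genes may share reads. Dividing by the smallest value of a library gave whole reads for 100.0% of values, within 0.001 reads. The cDNA was amplified by PCR without molecular identifiers, so the floor of 3 reads covers counting error only.

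The groups were compared in R 4.3.3 by limma 3.58.1, applied to log2(normalized count + 1), a scale that understates changes of low genes, with an intensity trend, for features with a mean of at least 5, two-sided, with Benjamini-Hochberg adjustment at 0.05. As alternatives, edgeR 4.0.16 (quasi-likelihood test) and DESeq2 1.42.0 were run on the recovered reads, beside other pseudocounts, filters and scalings, the replicate block and each library left out. The pipeline was tested on simulated data. The sources used here do not tell which rat each library came from, so p-values measure the spread between these libraries, and with 3 against 3 an exact permutation test cannot go below p = 0.1.

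Values of every library are given for members that passed, members whose groups do not overlap, the 3 of highest normalized count in each class (no coding lengths were at hand, so not per kb) and Cdh1 and Cdh16, except that some members are not reported here. Cldn4, Ocln, Tjp1, Gja4, Gja5, the within-library ratios, the marker sums without their most different gene, the shared run and the motifs were chosen after values were seen. Each ratio to Cldn4, Ocln, Gja1, Cdh16 or Aqp2 has a gene above it that was already separated, so its p-value is no independent test. Members and lists were chosen with earlier results of these data known. On 835 olfactory receptor rows, whose coding exon is usually single, end minus start was a multiple of 3 in 91.4%, so starts count from 0 and 1 was added. RefSeq synonyms were used to match older symbols in the marker and further junction lists. Python 3.11.15 was used for tables, with pandas 2.3.3, numpy 2.4.6 and scipy 1.17.1, and matplotlib 3.10.9 for plots.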

Additional observations from a re-analysis of the deposited data

How the results depend on the processing

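Over 18 alternatives, 1 junction gene passed as higher and 1 as lower in most. The higher count became 0 in limma without the intensity trend and 2 with DESeq2, and ranged from 0 to 1 with single libraries left out. The lower count became 3 after quantile normalization (Cldn8, Cldn15 and Marveld2), 0 without the trend and 2 with DESeq2, and ranged from 1 to 2 with single libraries left out, the 2 being Cldn8 and Gja4 without control replicate 3. Of the values of 19 named genes, 320 kept their direction and side of the threshold, 4 passed newly, 7 no longer passed and 6 changed direction. The last were F11r without control replicate 1, control replicate 2 or STZ replicate 3, Jup without control replicate 1, and Pkp2 without control replicate 1 or STZ replicate 2. With single libraries left out, log2 fold changes ranged from -0.13 to 0.049 for F11r, from -0.0011 to 0.097 for Jup and from -0.21 to 0.12 for Pkp2. The cause was not tested.

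Control and STZ libraries share replicate numbers but come from different animals. Over 9315 features the deviations of same-numbered libraries correlated at 0.395, -0.061 and 0.323. The correlations of differently numbered libraries ran from -0.472 to 0.220. Whether the numbers mark libraries handled together was not tested, and the main test used no pairing. With the replicate block, 1 junction gene was higher and 1 lower, again Gjb5 and Cldn8, while calls over all features rose from 283 to 561. The 26 rows under the minimum mean were not tested, and at 3 reads or fewer a low level cannot be told from none.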

Other observations

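A further list of junction genes outside the name rule, made of nectins, catenins, polarity and scaffold proteins and other adhesion molecules, held 42 genes, of which 35 were found and 34 tested. None passed with limma, edgeR or DESeq2, and 7 had an unadjusted limma p under 0.05, 5 of them higher in the STZ libraries. Of all features tested, 14.7% were under that p, and 7.75% were under it and higher. The list's median log2 fold change was 0.16, and the groups did not overlap in 12 of them, 9 higher and 3 lower, or 35.3%, against 20.3% of all features tested. The nectins Pvrl2 and Pvrl3 had log2 fold changes of 0.82 and 0.75, at limma adjusted p of 0.131 and 0.135. Inadl (listed as Inadl2), a scaffold of the Crumbs polarity complex, had 220, 220 and 204 normalized counts in the controls and 135, 120 and 167 in the STZ libraries, all below the controls, with a log2 fold change of -0.62 and an adjusted p of 0.143. Cdh5, the cadherin of endothelial junctions, was lower at -0.56, with an adjusted p of 0.163, and the nectin-binding Mllt4 at -0.16. Ctnnd1, Epcam, Magi3, Mpdz, Prkci, Ppl and Ybx3 (listed as Csda) were higher in every STZ library, with log2 fold changes from 0.14 to 0.64.

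The epithelial adhesion molecule Epcam had 1015, 767 and 1099 normalized counts in the controls and 1159, 1236 and 1176 in the STZ libraries, without overlap, at a log2 fold change of 0.33 and a limma adjusted p of 0.483.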
